A study of Mus musculus with 16 samples.

Results

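Macrophages and monocytes sorted from the same MN/MCA1 sarcomas of C3 wild-type mice were compared, mouse by mouse, across all expressed genes. The comparison used 8 of the 16 libraries of the series: 4 titled as macrophages and 4 as monocytes, chosen by their titles, which number the mice from 1 to 4. Each mouse gave both libraries, and every difference below is macrophage minus monocyte. The mice were C57BL/6J animals with an intact C3 gene. They received 500000 cells of MN/MCA1, a transplantable mouse fibrosarcoma line, subcutaneously in the right flank, and the tumours were removed after 21 days and dissociated with collagenase. Both populations were sorted as CD45+, CD11b+, Ly6G- and CD11c-. Monocytes were then taken as Ly6C+ and F4/80-, and macrophages as Ly6C- and F4/80+, so cells positive for both or neither of these proteins entered neither library. The remaining 8 libraries came from C3 knockout animals of the same strain, numbered 6 to 9, given the same tumour and sorted by the same gates, and are used here to ask whether the contrast differed with genotype. Each library was made from 5 ng of RNA of a sorted population, so the values are averages over many cells. Of 30819 genes in the matrix, 12769 passed the filter on low values and were tested.

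Monocytes are made in the bone marrow, circulate in the blood and enter tissues, where many of them develop into macrophages. Growth through the receptor for colony-stimulating factor 1 and the transcription factors PU.1, C/EBP and MAF family members shape this development. Classical monocytes carry Ly6C and the chemokine receptor CCR2, while resident and tumour macrophages carry F4/80, complement C1q, scavenger receptors and, in many tissues, the TAM receptors that bind dying cells through the bridging protein GAS6. Tumour macrophages take up dying cells, present antigen, remodel matrix and release growth and vessel-forming factors.

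Values are given as normalized reads, which are reads recovered from the deposited values and divided by each library's size factor, with mean ± SD over 4 mice. They are not corrected for transcript length and so compare a gene between libraries, not genes with each other. The 8 libraries held 18689287 to 25800722 recovered reads. The fitted log2 differences are on the deposited log2 scale, which draws low values together: among called genes with a difference of at least 1, the difference in log2 reads was 1.46 times as large (median). Per-library values are listed in the order of mice 1, 2, 3 and 4.

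The transcripts of the sort proteins and the marker genes went with the labels. Ly6c2, which encodes a Ly6C protein of the gate, was at 12.3, 19.1, 3.69 and 5.92 normalized reads in the macrophage libraries and 19070, 16370, 17040 and 12390 in the monocyte libraries. Adgre1, which encodes F4/80, was at 27680, 27590, 26550 and 27230 normalized reads in the macrophage libraries and 5763, 5447, 6565 and 5936 in the monocyte libraries. These genes reflect the gates and are no finding. Outside the gate proteins, C1qc, a chain of complement C1q, was at 95370, 103900, 101000 and 98270 normalized reads in the macrophage libraries and 7268, 6730, 10340 and 7877 in the monocyte libraries. Plac8, a gene of classical monocytes, was at 66.5, 54.99, 21.2 and 24.5 normalized reads in the macrophage libraries and 30410, 27440, 28100 and 28190 in the monocyte libraries. The groups did not overlap in any of these genes. Ptprc, which encodes CD45, and Itgam, which encodes CD11b, were detected in all 8 libraries and were higher in monocytes (-0.47 and -0.69). Ly6g, whose protein both gates excluded, was near 0, with means of 0.518 normalized reads in macrophages and 1.20 in monocytes. Itgax, which encodes the CD11c that both gates excluded, was nevertheless read at 6202 ± 596 normalized reads in macrophages and 4421 ± 579 in monocytes. Ly6c1 is a near-copy of Ly6c2, so reads may be shared between them and its values are uncertain.

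**Figure D1:**
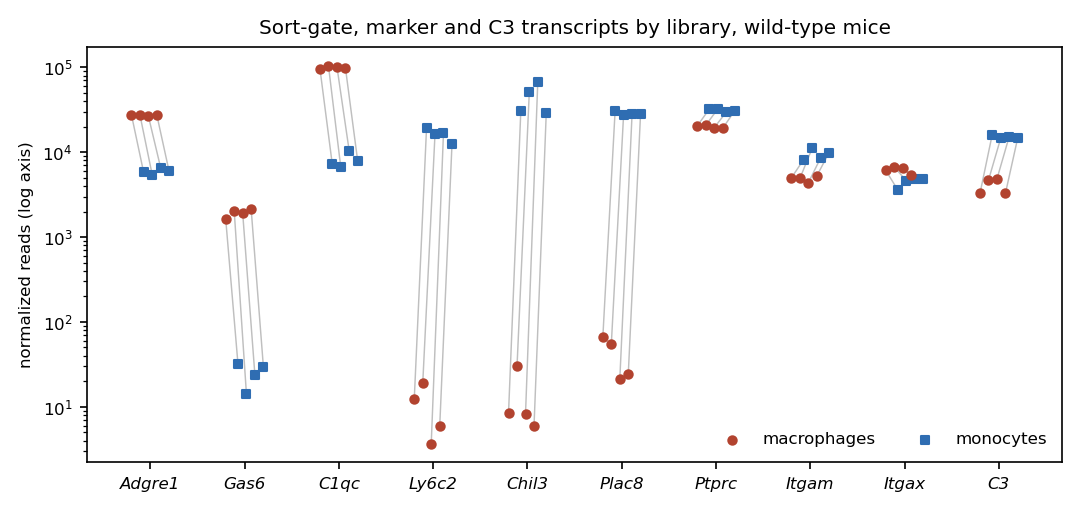
Normalized reads (log axis) of 10 genes in the 8 wild-type libraries, with circles for macrophages, squares for monocytes and a line joining both libraries of a mouse. Adgre1, Gas6 and C1qc sit higher in every macrophage library, and Ly6c2, Chil3, Plac8, Ptprc, Itgam and C3 in every monocyte library, while Itgax differs least, at 6202 against 4421.

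The populations differed across most of the expressed genome. With limma and the mouse as a block, 8399 of 12769 genes were called at an adjusted p under 0.05, which is 65.8% of the genes tested. Of these, 4160 were higher in macrophages (32.6% of the genes tested) and 4239 were higher in monocytes (33.2%). With a log2 difference of at least 1 asked as well, 1606 genes were called (12.6%), 767 higher in macrophages (6.01%) and 839 higher in monocytes (6.57%). The groups did not overlap for 57.6% of the genes tested, and the direction was the same in all 4 mice for 72.0%. Because so many genes passed, each count of list members below is to be read against 32.6% higher in macrophages and 33.2% higher in monocytes. A count near these shares shows nothing particular to its list. An exact test that flips the sign of the difference within each of the 4 mice cannot give a two-sided p below 0.125, so the adjusted p-values rest on the spread that limma shares across genes. In RNA from a sorted population, fewer cells expressing a gene and less RNA per cell cannot be told apart.

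Cadm1 (chromosome 9, 47530173 to 47857637, GRCm38) encodes an immunoglobulin-type adhesion molecule and showed the largest rise. It was at 5705, 4820, 5622 and 5262 normalized reads in the macrophage libraries and 49.4, 8.99, 76.1 and 37.1 in the monocyte libraries. The macrophage mean was 125-fold higher, a log2 difference of 4.66 with an SE of 0.11 (limma, adjusted p = 1.28e-08). The 15 largest rises and falls were taken only from called genes whose groups did not overlap, so that separation is no finding for them. Gas6 (chromosome 8, 13465374 to 13494490), the bridge between dying cells and the TAM receptors, was at 1633, 2049, 1920 and 2130 normalized reads in the macrophage libraries and 32.1, 14.1, 23.5 and 29.4 in the monocyte libraries, a log2 difference of 4.27 with an SE of 0.11 (limma, adjusted p = 1.95e-09). Cd207, which encodes the lectin langerin, was at 827, 908, 696 and 772 normalized reads in the macrophage libraries and 21.0, 0, 5.63 and 5.45 in the monocyte libraries, a log2 difference of 4.12 with an SE of 0.16 (limma, adjusted p = 3.53e-08). It was listed at 0 in the monocytes of mouse 2, the library that also held the fewest reads of Cadm1, Gas6, Fcrls, Tlr12 and Asb2 among the monocyte libraries.

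Other large rises were in Fcrls (4.06), which encodes a scavenger-type Fc receptor-like protein, and in Tlr12 (3.80), an endosomal Toll-like receptor. Fcrls was at 11420, 14630, 13090 and 15000 normalized reads in the macrophage libraries and 311, 128, 249 and 348 in the monocyte libraries, so the groups lay far apart. Hpgds, which encodes hematopoietic prostaglandin D synthase, was at 4944, 4755, 5125 and 4818 normalized reads in the macrophage libraries and 119.8, 132, 185 and 157 in the monocyte libraries, with a narrow spread in both groups and a log2 difference of 3.54 with an SE of 0.06 (limma, adjusted p = 1.47e-10). Col14a1, a fibril-associated collagen, and Cspg4, the proteoglycan NG2, are better known from stromal cells and were 35.3-fold and 37.9-fold higher in macrophages. The fibroblast and sarcoma markers as a list went the other way, as given further below, and the source of the Col14a1 and Cspg4 reads was not tested. The rest of the 15 largest rises were Asb2, Slco2b1, Scamp5, Blnk, Gpr34, Rapgef5 and Anpep, with log2 differences from 3.19 to 3.48. Blnk is an adaptor of B cell receptor signalling, Gpr34 a lysophosphatidylserine receptor, Slco2b1 an organic anion transporter and Anpep the aminopeptidase CD13.

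Chil3 (chromosome 3, 106147554 to 106167564, GRCm38), which encodes the chitinase-like protein Ym1, was at 8.55, 30.3, 8.31 and 5.92 normalized reads in the macrophage libraries and 30610, 50800, 67460 and 28960 in the monocyte libraries, a log2 difference of -6.92 with an SE of 0.18 (limma, adjusted p = 1.77e-06). No macrophage library came near the monocyte values, although the macrophages of mouse 2 held more than those of the other mice. Hp, which encodes the hemoglobin scavenger haptoglobin, was at 27.6, 44.9, 34.2 and 13.5 normalized reads in the macrophage libraries and 9334, 9042, 10240 and 9121 in the monocyte libraries, a log2 difference of -5.51 with an SE of 0.09 (limma, adjusted p = 4.12e-10). Ace, the angiotensin-converting enzyme and a gene of non-classical monocytes, was at 50.4, 51.6, 30.5 and 19.4 normalized reads in the macrophage libraries and 4136, 3752, 5545 and 5156 in the monocyte libraries, a log2 difference of -4.77 with an SE of 0.18 (limma, adjusted p = 1.45e-06). The groups did not overlap in these 3 genes, but the rule for the largest falls admitted only such genes, so this is no finding.

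The remaining large falls included F10, which encodes coagulation factor X (-4.93 ± 0.12, SE), and Plcb1, a phospholipase C of receptor signalling (-4.95 ± 0.09, SE). Lrg1, a secreted leucine-rich glycoprotein, was at 38.01, 5.61, 3.69 and 1.69 normalized reads in the macrophage libraries and 1870, 4059, 1440 and 2497 in the monocyte libraries, a log2 difference of -5.11 with an SE of 0.32 (limma, adjusted p = 3.97e-05). The macrophages of mouse 1 held more Lrg1 than the others but still far less than any monocyte library. Rab44, a large Rab GTPase, was 268-fold higher in monocytes, and the granule genes Cd177, Lcn2, S100a8, Slpi and Mmp8 were among the 15 largest falls next to Ly6c2 and Plac8.

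**Figure D2:**
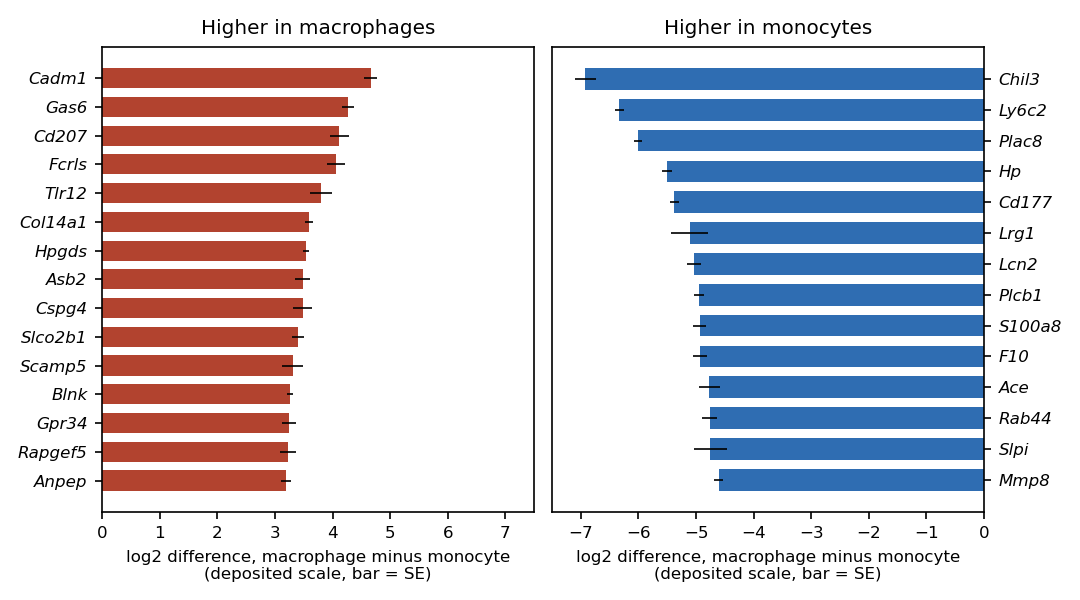
Log2 differences (macrophage minus monocyte, deposited scale, n = 4 mice) of the 15 largest rises and 14 of the 15 largest falls by the rule for named genes, with SE as error bars. Rises run from 3.19 to 4.66 and falls from -4.61 to -6.92, so the falls are larger on this scale.

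Among the lists of cell identity, 17 of 19 tested classical monocyte markers were higher in monocytes and none in macrophages, with a median log2 difference of -2.36 and medians of -2.56 to -2.24 over the 4 mice. The median over all genes tested was -0.005. The list holds 2 of the genes that served as label checks, Chil3 and Plac8. Vcan, which encodes the matrix proteoglycan versican, fell from 3624 ± 1135 normalized reads in monocytes to 39.1 ± 18.7 in macrophages (log2 difference -4.43 ± 0.10 SE; limma, adjusted p = 1.70e-09). F13a1, coagulation factor XIII A, fell from 39890 ± 3988 to 1440 ± 652 (log2 difference -3.41 ± 0.09 SE; limma, adjusted p = 1.89e-07). Thbs1, which encodes the matrix protein thrombospondin 1, was at 8366, 11500, 6212 and 8650 normalized reads in the macrophage libraries and 264200, 349800, 191300 and 296800 in the monocyte libraries, a log2 difference of -3.50 with an SE of 0.04 (limma, adjusted p = 4.52e-11). Lyz2, the lysozyme gene widely used to mark myeloid cells (-0.02), and Ly6a (0.03) did not pass the test.

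Of the non-classical monocyte markers, 7 of 9 tested were also higher in monocytes and 1 in macrophages (median -0.89). Nr4a1, the nuclear receptor that non-classical monocytes depend on, fell from 35500 ± 5596 to 5739 ± 775 normalized reads (log2 difference -1.88 ± 0.08 SE; limma, adjusted p = 1.55e-06). Cx3cr1, the fractalkine receptor, was the member that rose, from 14380 ± 2229 to 33000 ± 539 (log2 difference 0.87 ± 0.06 SE; limma, adjusted p = 1.66e-06). Both kinds of monocyte marker were thus higher in the gate that asked for Ly6C.

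Of the macrophage markers, 17 of 21 tested were higher in macrophages and 4 were lower, with a median of 1.39 and a range of 1.19 to 1.55 over mice. This list too holds genes that served as label checks, among them Gas6 and C1qc. Mrc1, which encodes the mannose receptor CD206, was at 5718, 6004, 5971 and 6558 normalized reads in the macrophage libraries and 400.2, 457, 262 and 198 in the monocyte libraries, a log2 difference of 2.93 with an SE of 0.13 (limma, adjusted p = 4.30e-06). Folr2, a folate receptor of tissue macrophages, was at 142, 147, 182 and 182 normalized reads in the macrophage libraries and 3.71, 8.99, 10.3 and 2.18 in the monocyte libraries, a log2 difference of 2.71 with an SE of 0.16 (limma, adjusted p = 2.48e-07). Neither gene's groups overlapped. The members that were higher in monocytes were Gpnmb (-1.76), a transmembrane glycoprotein of phagosomes, Spp1 (-1.04), which encodes osteopontin, Cd163 (-0.68), the haptoglobin-hemoglobin scavenger, and Fcgr1 (-0.51), the high-affinity IgG receptor. Spp1 and Gpnmb were each well measured, at 46560 ± 10060 and 180.1 ± 26.6 normalized reads in macrophages against 126800 ± 19040 and 993 ± 130.4 in monocytes. Cd163 rested on few reads (9.47 against 23.4 on average), its groups overlapped, and its call was lost without mouse 1 (limma, adjusted p = 0.0569; range over alternatives 0.00519 to 0.0569).

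**Figure D3:**
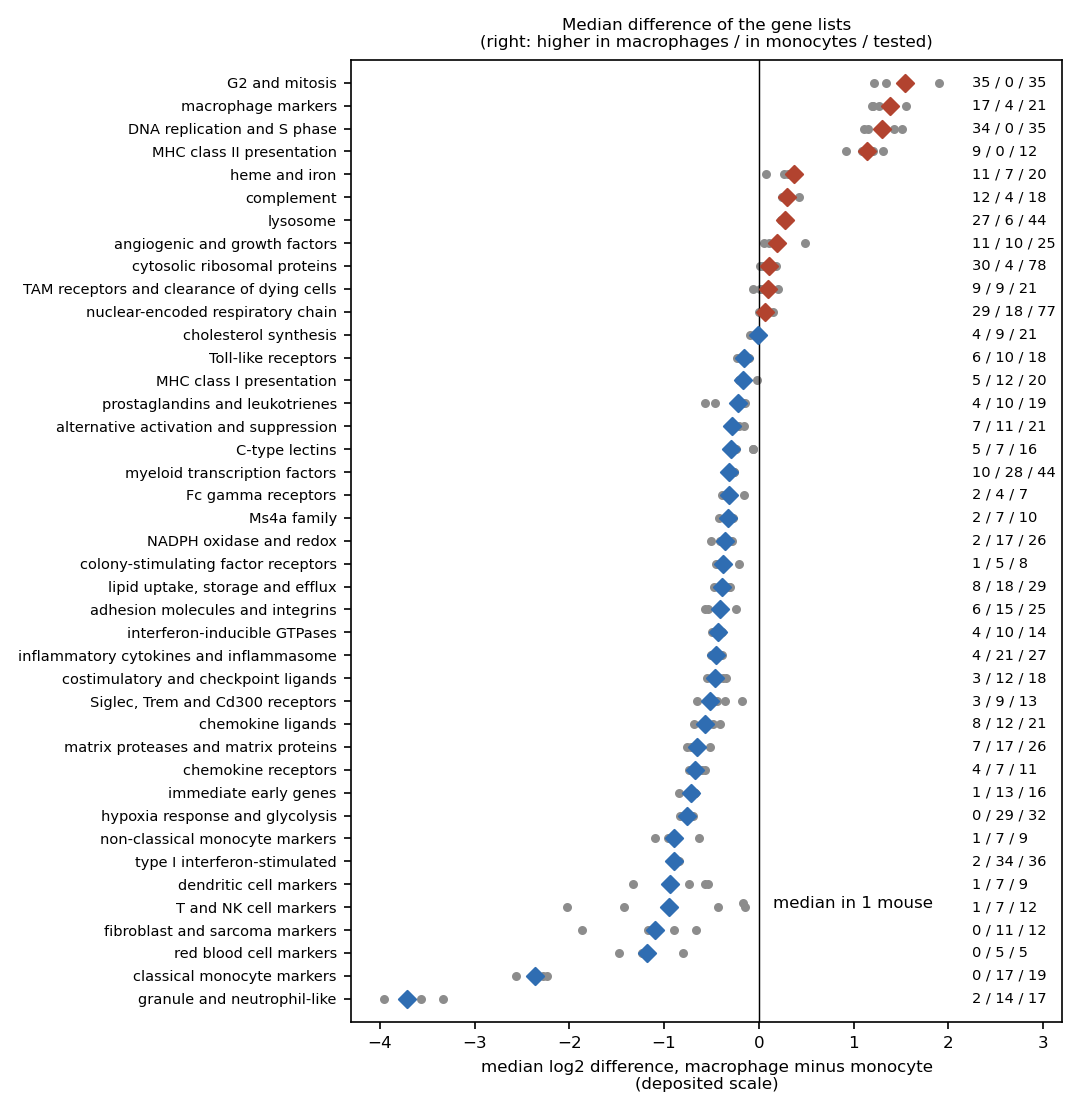
Median log2 difference (macrophage minus monocyte, deposited scale) of the tested members of 41 gene lists, with a diamond for the fitted median and grey points for the medians in each of the 4 mice. Numbers at the right count members higher in macrophages, higher in monocytes and tested. The G2 and mitosis list stands highest at 1.54 and the granule list lowest at -3.71.

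Transcription factors of the myeloid lineage were mostly higher in monocytes: 28 of 44 tested were called in that direction and 10 in the other (median -0.31). For all genes tested the shares were 33.2% and 32.6%. Cebpb, a C/EBP factor needed for the survival of Ly6C-low monocytes and for inflammatory genes, was at 2646, 9261, 12880 and 6064 normalized reads in the macrophage libraries and 40600, 62900, 46570 and 69880 in the monocyte libraries, a log2 difference of -2.13 with an SE of 0.24 (limma, adjusted p = 0.00112). Its macrophage values varied widely between mice, yet none reached the monocyte values. Cebpe, the C/EBP factor of granule formation (-2.06), Runx2 (-1.65), Bhlhe40 (-1.61), the oxygen-responsive factor Hif1a (-1.09) and the aryl hydrocarbon receptor Ahr (-1.03) were also lower in macrophages. The factors higher in macrophages were led by Mycl (2.23), a MYC family member, Bhlhe41 (2.10) and Maf (1.23). Spi1 (-0.28), which encodes PU.1, was lower in macrophages. Cebpa (0.98) and Pparg (0.98), a nuclear receptor of lipid handling, were higher, and Irf8 (0.05) did not pass the test.

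Of 8 receptor genes for colony-stimulating factors and the related cytokines, 5 were higher in monocytes and 1 in macrophages. Csf2rb, the shared beta chain of the receptors for GM-CSF, IL-3 and IL-5, fell from 12410 ± 909.7 to 4181 ± 209 (log2 difference -1.12 ± 0.04 SE; limma, adjusted p = 1.29e-08), with the caution that Csf2rb2 is a near-copy. Csf3r, the G-CSF receptor, fell from 4086 ± 271 to 1919 ± 168 (log2 difference -0.78 ± 0.04 SE; limma, adjusted p = 1.63e-07). Csf1r, on which macrophages depend, was at 86540, 95940, 96980 and 92130 normalized reads in the macrophage libraries and 77630, 81890, 88620 and 86140 in the monocyte libraries, a log2 difference of 0.11 with an SE of 0.03 (limma, adjusted p = 0.0141). Its groups overlapped and the call was lost under 4 alternatives, with an adjusted p of up to 0.123 when libraries were set to a common median (range 0.00705 to 0.123).

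Chemokine receptors showed 7 of 11 tested members higher in monocytes and 4 in macrophages. Ccr2, which draws classical monocytes out of the marrow, was at 12630, 11450, 9970 and 11850 normalized reads in the macrophage libraries and 39060, 42370, 36110 and 40300 in the monocyte libraries, a log2 difference of -1.27 with an SE of 0.04 (limma, adjusted p = 3.91e-09). It was still read in every macrophage library, without overlap between the groups. Ackr3, a decoy receptor for CXCL12, was 9.11-fold higher in monocytes (log2 difference -2.28 ± 0.12 SE; limma, adjusted p = 1.09e-07). Cxcr3, the receptor of CXCL9 and CXCL10, was 3.82-fold higher in macrophages (log2 difference 1.34 ± 0.12 SE; limma, adjusted p = 4.99e-06).

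The ligands split by gene, with 8 of 21 tested higher in macrophages and 12 of 21 higher in monocytes (all genes tested: 32.6% and 33.2%). Ccl8 and Ccl12, ligands of CCR2 and related receptors, rose in macrophages. Ccl12 was at 8883, 8515, 6719 and 7926 normalized reads in the macrophage libraries and 1057, 1024, 883 and 692 in the monocyte libraries, a log2 difference of 2.24 with an SE of 0.06 (limma, adjusted p = 5.07e-09). Cxcl14 rose from 1003 ± 112 to 4217 ± 428 (log2 difference 1.47 ± 0.04 SE; limma, adjusted p = 1.66e-09), and Ccl7 (1.20), Pf4 (1.09), Cxcl16 (0.88), Cxcl1 (0.72) and Cxcl9 (0.37) were called in the same direction. The call of Cxcl9 was lost without the replicate block (limma, adjusted p = 0.0529; range 0.00113 to 0.0529). On the monocyte side Cxcl3, a neutrophil attractant, was at 162, 209, 71.1 and 126 normalized reads in the macrophage libraries and 7203, 12670, 2729 and 7553 in the monocyte libraries, a log2 difference of -3.95 with an SE of 0.15 (limma, adjusted p = 2.05e-06). Ccl6 fell from 21140 ± 3242 in monocytes to 3449 ± 276 in macrophages (log2 difference -1.84 ± 0.04 SE; limma, adjusted p = 6.66e-10), and Ccl24, which attracts eosinophils, from 189 ± 54.1 to 4.71 ± 6.40 (log2 difference -3.03 ± 0.16 SE; limma, adjusted p = 1.14e-07). Ccl2 (-0.60), Ccl5 (-1.18), Cxcl10 (-1.05) and Cxcl11 (-1.35) were also higher in monocytes.

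Genes of cell division formed the most uniform group on the macrophage side. All 35 tested genes of G2 and mitosis were higher in macrophages, with a median of 1.54 and medians of 1.22 to 1.90 over the 4 mice, where 32.6% of all genes tested were called in that direction. Of the genes of DNA replication and S phase, 34 of 35 were higher in macrophages and none in monocytes (median 1.30, 1.11 to 1.51 over mice). The exception was Slbp, which encodes the histone stem-loop binding protein (0.03) and did not pass. With the further request for a difference of at least 1, 34 genes of G2 and mitosis and 23 of S phase were called, against 6.01% of all genes tested.

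Promoters of this group are shown because many carry recurrent short motifs that proteins of the cell cycle are known to bind. These are the CHR (TTTGAA) and the CCAAT box, and the stretch printed for Cdca8 holds CCAAT boxes but no CHR. Sequences are from RefSeq promoters of GRCm38.p6, written 5′ to 3′ on the gene's strand up to the base before the start, in lower case with CHR and CCAAT matches on either strand in capitals. Ccnb2 lies at chr9:70421555-70421734, minus strand, Cdca8 at chr4:124936918-124937017, minus strand and Cdc20 at chr4:118437344-118437413, minus strand.
Ccnb2: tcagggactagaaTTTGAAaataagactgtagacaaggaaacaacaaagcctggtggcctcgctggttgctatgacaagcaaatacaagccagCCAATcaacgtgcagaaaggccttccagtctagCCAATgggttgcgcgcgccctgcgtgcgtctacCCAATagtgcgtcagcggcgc
Cdca8: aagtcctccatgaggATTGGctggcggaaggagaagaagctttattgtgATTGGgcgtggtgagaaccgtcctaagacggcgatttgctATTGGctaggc
Cdc20: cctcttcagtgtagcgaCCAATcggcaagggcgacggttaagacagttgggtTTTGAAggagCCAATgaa
In the 250 bases before to 50 after the start, a CHR was found on either strand in 78.1% of promoters of the G2 and mitosis list, 9.09% of those of the S phase list, 12.3% of those of the genes tested and 17.9% of all 32851 promoters. A CCAAT box was found in 81.2%, 54.5%, 37.8% and 37.4%. These matches describe the letters of the windows and were not tested.

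Ccnb2, the cyclin B2 that drives entry into mitosis and whose promoter is printed above, was at 1883, 1351, 1661 and 1474 normalized reads in the macrophage libraries and 426, 145, 421 and 259 in the monocyte libraries, a log2 difference of 1.76 with an SE of 0.12 (limma, adjusted p = 4.08e-06). Cdca8, a subunit of the chromosomal passenger complex, was at 1187, 1043, 1082 and 1129 normalized reads in the macrophage libraries and 299, 131, 210.4 and 196 in the monocyte libraries, a log2 difference of 1.75 with an SE of 0.09 (limma, adjusted p = 2.74e-07). Cdc20, the activator of the anaphase-promoting complex, was at 1062, 749, 896 and 788 normalized reads in the macrophage libraries and 338, 91.1, 269.6 and 87.2 in the monocyte libraries, a log2 difference of 1.68 with an SE of 0.18 (limma, adjusted p = 0.00021). In each of these 3 genes all macrophage libraries were above all monocyte libraries, and the monocytes of mouse 1 came nearest. Birc5, which encodes survivin, was 6.19-fold higher in macrophages, and Nuf2, of the kinetochore, 6.85-fold. Among the S phase genes, Rrm2, a subunit of ribonucleotide reductase, was at 2416, 1980, 1867 and 2158 normalized reads in the macrophage libraries and 473, 268, 361 and 277 in the monocyte libraries, a log2 difference of 1.88 with an SE of 0.08 (limma, adjusted p = 4.31e-08). Mcm6, of the replicative helicase, rose from 1157 ± 238 to 6190 ± 382 (log2 difference 1.73 ± 0.08 SE; limma, adjusted p = 8.79e-07), and Tk1, thymidine kinase, from 156 ± 64.6 to 1077 ± 89.7 (log2 difference 2.01 ± 0.11 SE; limma, adjusted p = 6.22e-07). Division transcripts were thus read in monocytes too, at lower levels.

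Antigen presentation split by class. Of 12 tested genes of MHC class II presentation, 9 were higher in macrophages and none in monocytes (median 1.14). H2-Eb1, which encodes a class II beta chain, was at 62000, 60720, 66680 and 53760 normalized reads in the macrophage libraries and 5463, 4049, 8177 and 7428 in the monocyte libraries, a log2 difference of 2.15 with an SE of 0.10 (limma, adjusted p = 2.97e-06). Cd74, the invariant chain that guides class II molecules, was at 295900, 319400, 320800 and 269400 normalized reads in the macrophage libraries and 46720, 37170, 57200 and 60780 in the monocyte libraries, a log2 difference of 1.73 with an SE of 0.09 (limma, adjusted p = 4.67e-06). Ciita, whose product switches on class II transcription, was at 1778, 1810, 2105 and 1745 normalized reads in the macrophage libraries and 554, 449, 662 and 744 in the monocyte libraries, a log2 difference of 1.07 with an SE of 0.07 (limma, adjusted p = 1.15e-06). The groups of these genes did not overlap. H2-Aa (1.86), H2-Ab1 (1.81) and the peptide-loading genes H2-DMb1 (1.21) and H2-DMa (0.61) were called in the same direction. H2-Oa (0.27), Rfx5 (-0.04) and Ifi30 (0.12) did not pass.

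Dendritic cells and B cells also carry class II, so their markers are given beside these genes. Of 15 dendritic cell markers, 9 passed the filter on low values, 7 were higher in monocytes and Cd83, which activated macrophages also express, in macrophages (1.49). The list's summed level was 10770 to 15540 normalized reads in the macrophage libraries and 5670 to 6245 in the monocyte libraries, of which Cd83 made up most in macrophages (12030 on average). Xcr1 was read at 31.8 and 29 normalized reads on average, and Clec9a, a marker of cross-presenting dendritic cells, at 6.77 and 3.39. The list leaves out Cadm1 (4.66) and Cd207 (4.12), which dendritic cells can also express and which were among the largest rises in macrophages. Of 8 B cell markers, 3 passed the filter, and the list's sum was 3719 to 5931 normalized reads in the macrophage libraries and 1345 to 2119 in the monocyte libraries, nearly all of it Ighm (4662 and 1670 on average), the immunoglobulin mu heavy chain. The reads of Igkc were not recovered. The part of such cells in the class II result was not tested.

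For MHC class I presentation the direction was mixed, with 5 of 20 tested higher in macrophages and 12 of 20 in monocytes (median -0.17). The chaperones Pdia3 (0.54), Canx (0.39) and Calr (0.32) were higher in macrophages. Nlrc5, the class I transactivator (-0.42), H2-T23 (-0.51) and the peptide transporter Tap1 (-0.29) were higher in monocytes. Ligands of T cell costimulation and checkpoints were mostly higher in monocytes, at 12 of 18 tested against 3 in macrophages. Cd80, the costimulatory ligand B7-1, was at 367, 406, 353 and 334 normalized reads in the macrophage libraries and 1841, 2415, 1475 and 1965 in the monocyte libraries, a log2 difference of -1.69 with an SE of 0.07 (limma, adjusted p = 3.04e-08). Cd274, which encodes PD-L1, was at 1743, 2395, 1553 and 1447 normalized reads in the macrophage libraries and 4084, 5603, 3441 and 3715 in the monocyte libraries, a log2 difference of -0.90 with an SE of 0.04 (limma, adjusted p = 4.66e-08). Havcr2 (-0.65), which encodes TIM-3, and Vsir (-0.55), which encodes VISTA, were higher in monocytes as well, while Nectin2 (0.82) was higher in macrophages.

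Complement genes stood mostly on the macrophage side, with C3 itself as the largest exception. Of 18 tested, 12 were higher in macrophages and 4 in monocytes (median 0.30). The C1q chains C1qa (2.65), C1qb (2.16) and C1qc (2.59), which start the classical pathway, rose together. Fcna, which encodes the pattern-recognition protein ficolin A, was at 367, 328, 366 and 393 normalized reads in the macrophage libraries and 22.2, 7.70, 31.9 and 26.2 in the monocyte libraries, a log2 difference of 2.72 with an SE of 0.13 (limma, adjusted p = 8.29e-08). Cd59a, the inhibitor of the membrane attack complex, rose from 5.60 ± 5.33 to 99.2 ± 18.5 (log2 difference 2.29 ± 0.17 SE; limma, adjusted p = 1.88e-06). C3, the component that the series deletes in its other mice, went the opposite way and was at 3262, 4668, 4830 and 3272 normalized reads in the macrophage libraries and 16130, 14610, 15270 and 14630 in the monocyte libraries, a log2 difference of -1.44 with an SE of 0.09 (limma, adjusted p = 7.22e-06). Every monocyte library of these wild-type mice thus held more C3 reads than any macrophage library. C3ar1, the receptor of the C3a fragment, was higher in macrophages (0.50), and C5ar1 (-0.03) did not pass.

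Among genes for the clearance of dying cells, 9 of 21 tested were higher in each direction (median 0.10), against 32.6% and 33.2% of all genes tested. The TAM receptors were divided. Mertk was at 2333, 2660, 2891 and 2329 normalized reads in the macrophage libraries and 608, 512, 721 and 522 in the monocyte libraries, a log2 difference of 1.53 with an SE of 0.06 (limma, adjusted p = 1.34e-08). Axl was at 47940, 49560, 47550 and 47690 normalized reads in the macrophage libraries and 19820, 15750, 18320 and 14780 in the monocyte libraries, a log2 difference of 1.07 with an SE of 0.05 (limma, adjusted p = 1.31e-07). These receptors rose without overlap between the groups, and their ligand Gas6 rose as given above. Tyro3, the remaining TAM receptor, rested on few reads, at 11.7 ± 6.92 normalized reads in macrophages and 22.2 ± 13.7 in monocytes, and its groups overlapped. It was called higher in monocytes (log2 difference -0.45 ± 0.17 SE; limma, adjusted p = 0.04), but the call was lost under 6 alternatives, among them leaving out mouse 1, 2 or 3 (limma, adjusted p up to 0.158; range 0.0191 to 0.158). Cd300lf (-1.22) and Cd300a (-1.14), lipid receptors that recognise dying cells, and Lrp1 (-0.84) were lower in macrophages.

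Receptors of innate recognition were divided as well (all genes tested: 32.6% higher in macrophages and 33.2% in monocytes). Of the Fc gamma receptor list, the neonatal receptor Fcgrt (1.59) and Fcrls rose, and Fcgr1, Fcgr2b, Fcgr3 and Fcgr4 fell, from -0.31 to -0.51. Of the Toll-like receptor list, 6 of 18 tested were higher in macrophages, near the share of all genes tested, among them Tlr3 (0.79) and Tlr1 (0.71). In monocytes 10 were higher, among them Tlr5 (-1.51), Cd14 (-0.47) and the adaptor Myd88 (-0.72). Of 16 C-type lectins, 5 rose, led by Mrc1 and Mgl2 (2.73), a count also near that share. The 7 that fell were led by Clec4e (-2.53), which encodes the mycobacterial lipid receptor Mincle. Mgl2 has the near-copy Clec10a, so its values are uncertain. Of the Siglec, Trem and Cd300 receptors 3 of 13 were higher in macrophages and 9 in monocytes, and of the Ms4a family 2 of 10 and 7. In that family Ms4a7 rose from 2858 ± 374 to 25860 ± 1017 (log2 difference 2.27 ± 0.05 SE; limma, adjusted p = 2.20e-09), and Ms4a4c fell from 16260 ± 2043 to 3974 ± 969.7 (log2 difference -1.48 ± 0.05 SE; limma, adjusted p = 2.27e-08).

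Lysosomal genes were more often higher in macrophages, 27 of 44 tested against 6 in monocytes, but by small amounts (median 0.28; 6 with a difference of at least 1). The count of 6 was 3 with neither trend nor robust estimation. Cd63, a tetraspanin of late endosomes, was at 17510, 17260, 18520 and 17030 normalized reads in the macrophage libraries and 2455, 1094, 2130 and 1173 in the monocyte libraries, a log2 difference of 2.46 with an SE of 0.13 (limma, adjusted p = 1.65e-05). Lgmn, the protease legumain (0.92), Naglu (1.08) and Acp5, tartrate-resistant acid phosphatase (1.13), were also higher. Ctsk, cathepsin K, was at 805, 1123, 1124 and 903 normalized reads in the macrophage libraries and 169, 227, 770.2 and 311 in the monocyte libraries, a log2 difference of 1.17 with an SE of 0.21 (limma, adjusted p = 0.00375), but the call was lost with all 16 libraries fitted together (adjusted p = 0.16; range 2.65e-07 to 0.16). Of the transcription factors that bind the lysosomal E-box, Mitf was higher in macrophages (0.51), and Tfeb (-0.41), Tfec (-1.11) and Tfe3 (-0.12) were lower. The call of Tfe3 was lost without mouse 1, without mouse 4 and with neither trend nor robust estimation (limma, adjusted p up to 0.0748; range 0.00325 to 0.0748). The E-box TCACGTGA, read the same on both strands, was found in 15.9% of the promoters of the lysosome list, 1.86% of those of the genes tested and 0.974% of all promoters. It was in 1.2% of promoters of genes higher in macrophages by at least 1 and in 0.504% of those higher in monocytes by at least 1.

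Lipid genes did not move as a block, with 8 of 29 tested higher in macrophages and 18 in monocytes (all genes tested: 32.6% and 33.2%). Apoe, the apolipoprotein of macrophage cholesterol efflux, was at 393000, 502000, 502200 and 409200 normalized reads in the macrophage libraries and 98570, 77300, 135200 and 95850 in the monocyte libraries, a log2 difference of 1.56 with an SE of 0.09 (limma, adjusted p = 9.94e-06). Lpl, lipoprotein lipase, rose from 339.6 ± 56.2 to 1837 ± 319 (log2 difference 1.66 ± 0.07 SE; limma, adjusted p = 2.85e-08). Both were higher in all 4 macrophage libraries. Other lipid genes went the opposite way. Olr1, the receptor for oxidised LDL, was at 72.2, 69.6, 52.6 and 65.1 normalized reads in the macrophage libraries and 1724, 1909, 1337 and 2290 in the monocyte libraries, a log2 difference of -3.31 with an SE of 0.09 (limma, adjusted p = 1.39e-09). Dgat2, which makes triglyceride, was at 268, 272, 325 and 269 normalized reads in the macrophage libraries and 5116, 6218, 4150 and 6101 in the monocyte libraries, a log2 difference of -3.05 with an SE of 0.10 (limma, adjusted p = 1.37e-07). The groups of these genes did not overlap. For heme and iron, 11 of 20 tested were higher in macrophages and 7 in monocytes. Tfrc, the transferrin receptor, rose from 508 ± 156 to 1491 ± 119 (log2 difference 1.13 ± 0.09 SE; limma, adjusted p = 1.44e-05), and Slc11a2, an iron transporter, from 649.8 ± 56.1 to 1561 ± 55.4 (log2 difference 0.90 ± 0.05 SE; limma, adjusted p = 2.47e-07).

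Interferon-stimulated genes were higher in monocytes almost throughout: 34 of 36 tested members of the type I list were called in that direction, where 33.2% of all genes tested were. The median was -0.90, and the medians of the 4 mice lay between -0.92 and -0.84. The exceptions were Ifi44 (0.70) and Bst2 (0.29), the tetherin that holds virus particles, which were higher in macrophages. The promoters of 3 members are shown because they hold the ISRE core, the element that interferon-activated STAT and IRF proteins bind, read here as GAAA, any 2 bases, GAAA on either strand. Ifit1 lies at chr19:34640769-34640888, plus strand, Isg15 at chr4:156200819-156200908, minus strand and Rsad2 at chr12:26456453-26456582, minus strand, with ISRE cores in capitals together with the MAF motif TGCTGAC and the AP-1 motif TGANTCA where they occur.
Ifit1: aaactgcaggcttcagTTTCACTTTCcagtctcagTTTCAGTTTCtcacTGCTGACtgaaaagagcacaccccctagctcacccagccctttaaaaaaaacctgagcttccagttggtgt
Isg15: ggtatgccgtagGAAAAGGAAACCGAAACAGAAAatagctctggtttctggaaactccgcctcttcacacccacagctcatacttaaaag
Rsad2: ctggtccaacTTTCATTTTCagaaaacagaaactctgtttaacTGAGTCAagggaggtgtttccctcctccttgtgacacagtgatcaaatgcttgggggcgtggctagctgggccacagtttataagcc
An ISRE core was found in 50% of the promoters of this list and in 3.44% of all promoters.

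Rsad2, which encodes the antiviral enzyme viperin, was at 3888, 4169, 3648 and 2625 normalized reads in the macrophage libraries and 20580, 17360, 16510 and 12150 in the monocyte libraries, a log2 difference of -1.57 with an SE of 0.04 (limma, adjusted p = 2.54e-09). Ifit1, which binds foreign RNA, was at 3079, 3194, 2805 and 2163 normalized reads in the macrophage libraries and 11980, 10070, 10560 and 8352 in the monocyte libraries, a log2 difference of -1.34 with an SE of 0.04 (limma, adjusted p = 6.31e-09). Isg15, the ubiquitin-like modifier, was at 1703, 1611, 1377 and 1103 normalized reads in the macrophage libraries and 5222, 4384, 5271 and 3883 in the monocyte libraries, a log2 difference of -1.22 with an SE of 0.06 (limma, adjusted p = 7.12e-08). Every monocyte library was above every macrophage library in these genes. Irf7 (-0.84), Stat2 (-0.88) and Irf9 (-0.49), which carry the interferon signal, were higher in monocytes too. Ifit3 and Ifit3b are near-copies and share reads. The interferon-inducible GTPases were less uniform, with 4 of 14 tested higher in macrophages, among them Iigp1 (1.75) and Gbp8 (1.46), and 10 in monocytes, among them Gbp5 (-0.95) and Gbp2 (-0.73). Several of these GTPases have near-identical copies, so single values are uncertain.

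Inflammatory cytokine and inflammasome genes were mostly higher in monocytes, 21 of 27 tested against 4 in macrophages (median -0.45). The count of 4 was 1 without the replicate block. Il1b was at 15290, 21690, 13660 and 14680 normalized reads in the macrophage libraries and 78510, 80680, 72840 and 84520 in the monocyte libraries, a log2 difference of -1.63 with an SE of 0.06 (limma, adjusted p = 1.66e-07). Il1r2, the decoy receptor that captures IL-1, was at 244, 408, 205 and 188 normalized reads in the macrophage libraries and 2632, 5714, 3976 and 2880 in the monocyte libraries, a log2 difference of -2.70 with an SE of 0.09 (limma, adjusted p = 5.29e-08). Osm, which encodes the cytokine oncostatin M, was at 7468, 9036, 6394 and 6892 normalized reads in the macrophage libraries and 39520, 60610, 41150 and 50500 in the monocyte libraries, a log2 difference of -1.92 with an SE of 0.05 (limma, adjusted p = 6.81e-09). The cytokine and its decoy were thus both higher in monocytes, without overlap. Il6 was low in macrophages (31.8 ± 19.6) and higher in monocytes (332 ± 133; log2 difference -2.34 ± 0.11 SE; limma, adjusted p = 5.03e-08). Il12b, the shared subunit of IL-12 and IL-23, went the other way (1.37).

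Genes linked to alternative activation and suppression gave no common direction, with 7 of 21 tested higher in macrophages and 11 in monocytes. The macrophage count was near the 32.6% of all genes tested, where 33.2% were higher in monocytes. Mrc1, Mgl2 and Folr2 rose in macrophages. Arg1, arginase 1, was at 13160, 18340, 10310 and 15680 normalized reads in the macrophage libraries and 36330, 49470, 30110 and 40000 in the monocyte libraries, a log2 difference of -1.05 with an SE of 0.03 (limma, adjusted p = 6.53e-09). Nos2, the inducible nitric oxide synthase that competes with arginase for arginine, was at 223, 476, 365 and 301 normalized reads in the macrophage libraries and 2904, 6652, 3044 and 3574 in the monocyte libraries, a log2 difference of -2.54 with an SE of 0.09 (limma, adjusted p = 9.77e-08). Acod1, which makes itaconate (-1.48), and Tgfb1 (-1.06) were likewise higher in monocytes. Arg1 and Nos2, often used as markers of opposite activation states, thus stood on the same side of this contrast.

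The response to low oxygen and glycolysis was on the monocyte side: 29 of 32 tested were higher in monocytes and none in macrophages (median -0.76, -0.83 to -0.69 over mice). Egln3, the prolyl hydroxylase that marks HIF proteins for decay, was at 173, 369, 192 and 205 normalized reads in the macrophage libraries and 2912, 4377, 3291 and 3010 in the monocyte libraries, a log2 difference of -2.81 with an SE of 0.06 (limma, adjusted p = 4.62e-10). Slc2a1, the glucose transporter GLUT1, was at 4595, 6668, 5305 and 5759 normalized reads in the macrophage libraries and 15520, 22180, 16480 and 18380 in the monocyte libraries, a log2 difference of -1.22 with an SE of 0.03 (limma, adjusted p = 2.40e-09). Ndrg1, a gene induced by low oxygen, was at 622, 809, 727 and 662 normalized reads in the macrophage libraries and 4472, 6920, 5217 and 4940 in the monocyte libraries, a log2 difference of -2.09 with an SE of 0.05 (limma, adjusted p = 6.66e-10). None of these groups overlapped. The glycolytic enzymes differed less, with Pgk1 at -0.76, Pkm at -0.76 and Gapdh at -0.40. Slc2a3 (0.00), Pfkfb4 (-0.02) and P4ha2 (-0.09) did not pass.

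Immediate early genes, which also respond to tissue dissociation, were higher in monocytes in 13 of 16 tested and in macrophages in 1, Fosb (1.00). Egr1 was at 6233, 5478, 4367 and 4047 normalized reads in the macrophage libraries and 21470, 23180, 23400 and 16920 in the monocyte libraries, a log2 difference of -1.52 with an SE of 0.06 (limma, adjusted p = 2.42e-07). Jun (-1.33), Atf3 (-1.08) and Ier3 (-1.95) were also higher in monocytes. The part of dissociation in the inflammatory genes was not tested. The AP-1 motif was found in 11.2% of the promoters of genes higher in monocytes by at least 1, in 4.78% of those higher in macrophages by at least 1 and in 5.4% of those of the genes tested.

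In the prostaglandin and leukotriene list, 4 of 19 tested were higher in macrophages and 10 in monocytes, and the enzymes were divided between the populations. Ptgs1, the constitutive cyclooxygenase, was at 9378, 10300, 8659 and 9643 normalized reads in the macrophage libraries and 845, 965, 945 and 894 in the monocyte libraries, a log2 difference of 2.41 with an SE of 0.04 (limma, adjusted p = 1.63e-10). Ptgs2, the inducible cyclooxygenase, was at 2934, 4022, 2102 and 2936 normalized reads in the macrophage libraries and 12370, 17620, 7439 and 11850 in the monocyte libraries, a log2 difference of -1.43 with an SE of 0.05 (limma, adjusted p = 9.66e-09). Hpgds, the prostaglandin D synthase named above, stood with Ptgs1 on the macrophage side. Ptges, a prostaglandin E synthase (-1.22), and the leukotriene B4 receptor Ltb4r1 (-3.35) stood with Ptgs2 on the monocyte side.

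**Figure D4:**
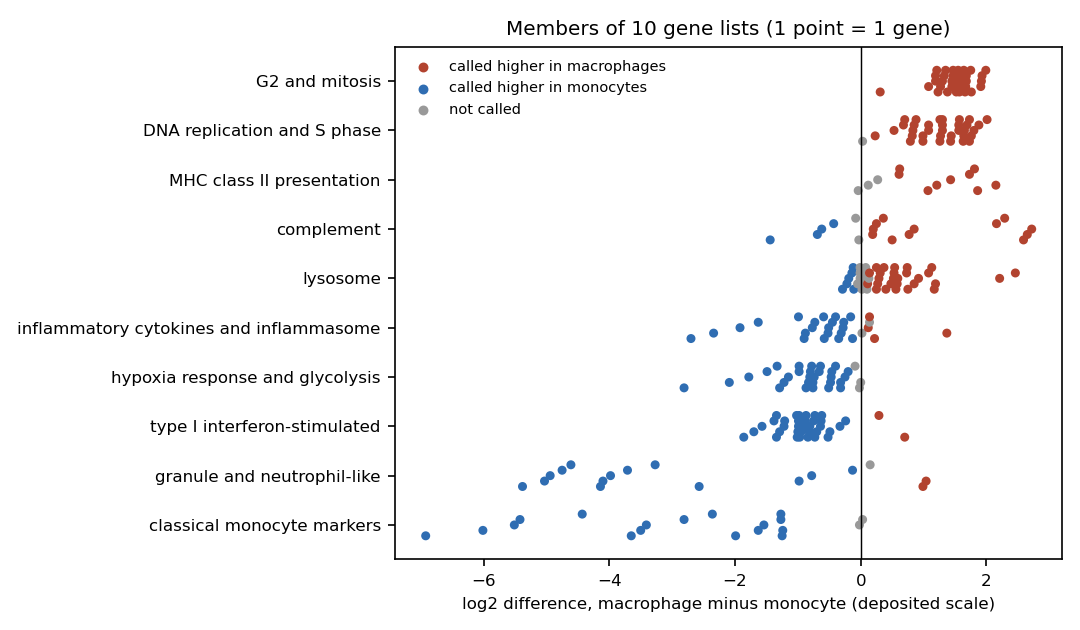
Log2 differences (macrophage minus monocyte, deposited scale) of every tested member of 10 gene lists, each point a gene, coloured by the call. All genes of G2 and mitosis lie to the right of 0, the hypoxia and glycolysis genes lie at or to the left of it, and the complement list reaches from -1.44 to 2.72.

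Granule and neutrophil-like genes showed the lowest median of all lists, -3.71, with 14 of 17 tested higher in monocytes. The members higher in macrophages were Lyz1 (0.99) and Mmp25 (1.04), and Mmp9 (0.15) did not pass. Lyz1 is a near-copy of Lyz2. The promoters of 2 members are printed because they hold the C/EBP motif TTGCNNAA, the element bound by C/EBP factors. Of the factors described above, Cebpb and Cebpe were lower in macrophages and Cebpa was higher. Lcn2 lies at chr2:32387740-32387969, minus strand and S100a9 at chr3:90695722-90695971, minus strand, with C/EBP matches and any other motif searched here in capitals.
Lcn2: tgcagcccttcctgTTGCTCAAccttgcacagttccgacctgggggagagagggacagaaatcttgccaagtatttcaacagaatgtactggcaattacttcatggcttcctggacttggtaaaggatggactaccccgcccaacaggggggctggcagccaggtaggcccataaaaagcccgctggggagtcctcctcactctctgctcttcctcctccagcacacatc
S100a9: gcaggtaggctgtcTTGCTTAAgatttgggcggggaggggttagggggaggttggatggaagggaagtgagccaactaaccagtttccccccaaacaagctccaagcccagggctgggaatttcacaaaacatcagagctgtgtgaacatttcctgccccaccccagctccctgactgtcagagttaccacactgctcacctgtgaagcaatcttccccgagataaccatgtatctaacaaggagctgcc
A C/EBP match was found in 46.7% of the 15 promoters of this list and in 10.8% of all promoters, and the PU.1 motif GAGGAAGT in 26.7% and 3.2%. The C/EBP match was also in 18.2% of promoters of the lysosome list, whose called members were mostly higher in macrophages. These shares were not tested.

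Lcn2, the iron-binding lipocalin of neutrophil granules, was at 0, 0, 0 and 0 normalized reads in the macrophage libraries and 661, 806, 875 and 656 in the monocyte libraries. With a floor of 3 counts per library for the macrophages, it was at least 260.2-fold higher in monocytes (log2 difference -5.03 ± 0.12 SE; limma, adjusted p = 7.92e-10). S100a8, a subunit of calprotectin, was at 10.4, 16.8, 6.46 and 11.8 normalized reads in the macrophage libraries and 1289, 2560, 1477 and 1802 in the monocyte libraries, a log2 difference of -4.94 with an SE of 0.11 (limma, adjusted p = 5.07e-10). S100a9, its partner, was at 6.65, 4.49, 3.69 and 2.54 normalized reads in the macrophage libraries and 235, 755, 401 and 474 in the monocyte libraries, a log2 difference of -4.10 with an SE of 0.23 (limma, adjusted p = 8.30e-07). Calprotectin is the main cytosolic protein of neutrophils, and both of its genes were low in every macrophage library. Cd177, a surface protein of granulocytes, was at 4.75, 0, 0.923 and 0 normalized reads in the macrophage libraries and 2579, 2279, 2686 and 2307 in the monocyte libraries, a log2 difference of -5.38 with an SE of 0.08 (limma, adjusted p = 1.47e-10). Mmp8, the neutrophil collagenase, was at 24.7, 41.5, 27.7 and 21.1 normalized reads in the macrophage libraries and 2578, 4361, 3514 and 3211 in the monocyte libraries, a log2 difference of -4.61 with an SE of 0.08 (limma, adjusted p = 1.47e-10). Slpi, an inhibitor of granule proteases, was at 225, 37.04, 12.0 and 27.9 normalized reads in the macrophage libraries and 7378, 8712, 4466 and 7303 in the monocyte libraries, a log2 difference of -4.75 with an SE of 0.29 (limma, adjusted p = 0.000111). The macrophages of mouse 1 held several times as much Slpi as those of the others.

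Neutrophil markers moved with these genes. Of 10 markers, 6 passed the filter and all 6 were higher in monocytes, 3 could not be recovered as reads and Ly6g was near 0, as given above. The list's summed level was 1731 to 2106 normalized reads in the macrophage libraries and 8172 to 12180 in the monocyte libraries. In macrophages Csf3r made up most of it (1919 on average, and 4086 in monocytes). All 6 tested members are also members of the granule list. Cxcr2, a chemokine receptor of neutrophils, was at 106, 227, 79.8 and 59.96 normalized reads in the monocyte libraries and at 0 in all macrophage libraries but that of mouse 2. The part of neutrophils in the granule result was not tested.

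Of the list that joins the NADPH oxidase, which makes oxidants, with redox genes, 17 of 26 tested were higher in monocytes and 2 in macrophages. The examples are redox enzymes. Gsr, glutathione reductase, was at 1654, 1997, 1551 and 1548 normalized reads in the macrophage libraries and 24130, 25790, 23720 and 26320 in the monocyte libraries, a log2 difference of -2.78 with an SE of 0.04 (limma, adjusted p = 1.47e-10). Prdx6, a peroxiredoxin, fell from 25950 ± 2049 to 3776 ± 283 (log2 difference -1.98 ± 0.04 SE; limma, adjusted p = 1.56e-10), and Mgst1, a microsomal glutathione transferase, from 3401 ± 342 to 202 ± 45.3 (log2 difference -2.81 ± 0.06 SE; limma, adjusted p = 5.61e-10).

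Genes of matrix, vessels and adhesion were split between the populations. Of 26 tested matrix proteins and proteases, 7 were higher in macrophages and 17 in monocytes (all genes tested: 32.6% and 33.2%). Timp2, an inhibitor of matrix proteases, was at 14680, 16380, 18500 and 17700 normalized reads in the macrophage libraries and 3436, 1522, 2957 and 1670 in the monocyte libraries, a log2 difference of 2.07 with an SE of 0.17 (limma, adjusted p = 0.000391). Timp1, its relative, fell from 338 ± 100.3 to 70.4 ± 25.8 (log2 difference -1.55 ± 0.09 SE; limma, adjusted p = 3.33e-07). Of 25 angiogenic and growth factor genes, 11 were higher in macrophages and 10 in monocytes. Igf1, insulin-like growth factor 1, rose from 12.7 ± 5.00 to 122 ± 35.7 (log2 difference 1.98 ± 0.17 SE; limma, adjusted p = 5.39e-06), and Pdgfb, a platelet-derived growth factor, from 197 ± 85.6 to 1519 ± 261 (log2 difference 2.11 ± 0.16 SE; limma, adjusted p = 4.38e-05). The neuropilins Nrp1 (1.49) and Nrp2 (1.51), co-receptors of VEGF and semaphorins, rose too. Inhba, which encodes the activin A subunit, was at 60.8, 44.9, 28.6 and 32.1 normalized reads in the macrophage libraries and 1236, 2091, 797 and 1288 in the monocyte libraries, a log2 difference of -3.48 with an SE of 0.14 (limma, adjusted p = 1.02e-07). Flt1, the VEGF receptor 1, was 27.3-fold higher in monocytes (log2 difference -3.19 ± 0.15 SE; limma, adjusted p = 1.56e-07).

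Of 25 adhesion molecules and integrins, 6 were higher in macrophages and 15 in monocytes (all genes tested: 32.6% and 33.2%). Itgb7, an integrin chain of homing to mucosa, was at 1369, 1299, 1091 and 1128 normalized reads in the macrophage libraries and 11070, 11150, 12190 and 11950 in the monocyte libraries, a log2 difference of -2.27 with an SE of 0.05 (limma, adjusted p = 1.86e-09). Itga9 (2.04), Itga6 (1.64), the tetraspanin Cd81 (2.07) and Vcam1 (1.56) were higher in macrophages.

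Markers of cells outside the gates were mostly higher in monocytes. Of 15 fibroblast and sarcoma markers, 12 passed the filter, 11 were higher in monocytes and none in macrophages (median -1.10, -1.87 to -0.66 over mice). Their summed level was 1344 to 3821 normalized reads in the macrophage libraries and 5191 to 10920 in the monocyte libraries. These sums leave out 1 member whose reads were not recovered. The part of such RNA in the matrix result was not tested. Of 5 red blood cell markers all 5 were higher in monocytes, with a summed level of 869.8 to 2467 normalized reads in the macrophage libraries and 2928 to 7158 in the monocyte libraries, and the hemoglobin genes are near-copies of each other. Of 15 T and NK cell markers, 12 passed the filter, 7 were higher in monocytes and Cd4, which mouse myeloid cells can also express, in macrophages (2.24). That list's sum was 186 to 291 normalized reads in the macrophage libraries and 291 to 1560 in the monocyte libraries, and its median ran from -2.02 to -0.15 over mice. Its count of 7 ran from 1 to 10 over the alternatives, with the lowest under the stricter filter on low values, which tests fewer genes, and was 3 without mouse 4. Of 8 endothelial markers 4 passed the filter, 2 in each direction, with a sum of 532 to 669 normalized reads in the macrophage libraries and 533 to 768 in the monocyte libraries. Of 8 mast cell, basophil and eosinophil markers 1 passed the filter and was higher in monocytes, with a sum of 11.2 to 22.2 normalized reads in the macrophage libraries and 26.96 to 39.5 in the monocyte libraries.

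Of the lists of housekeeping genes, the ribosomal proteins were called less often than all genes tested. The respiratory chain (61%) and cholesterol synthesis (61.9%) lists were near the share of all genes tested. The differences in shares were not tested. Of 77 tested nuclear-encoded genes of the respiratory chain, 29 were higher in macrophages and 18 in monocytes, so 61% were called against 65.8% of all genes tested. The count of 18 was 11 without mouse 4. Ndufa4 (-0.97), a subunit of cytochrome c oxidase, was lower in macrophages, and Ndufa12 (0.73) of complex I was higher. Of 78 cytosolic ribosomal protein genes, 30 were higher in macrophages and 4 in monocytes (median 0.11), so 43.6% were called. With libraries set to a common median these counts were 18 and 9, the first was 19 without mouse 1, and the second was 2 without mouse 3 or mouse 4. Of 21 genes of cholesterol synthesis, 4 were higher in macrophages, with Dhcr7 at 0.77, and 9 in monocytes, with Mvd at -0.57.

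The same contrast in the C3 knockout mice asked whether these differences were bound to the wild-type genotype. No library is shared between the contrasts. C3 was still read in the libraries labelled as knockout, at 1076, 1368, 1390 and 1102 normalized reads in macrophages and 4624, 5204, 5138 and 4735 in monocytes. Each was below every wild-type library of the same cells, with means at 30.8% and 32.5% of wild type, and the contrast of C3 was -1.35 there against -1.44. The values are sums over the gene, so whether the deleted stretch itself was read cannot be told from them. In the knockout, 7773 of 12772 genes were called, which is 60.9%. Of the 8326 wild-type calls tested there, 6805 (81.7%) were called in the same direction and 22 in the opposite one. Of 1570 with a wild-type difference of at least 1, 1537 (97.9%) were called in the same direction and 1 in the opposite one. The difference between the contrasts was itself tested with all 16 libraries, and 251 of 13134 genes were called, which is 1.91%: 165 with a higher macrophage minus monocyte difference in the knockout and 86 with a lower one. Without the replicate block that count was 81, and 10 of the 35 called genes named here kept their call.

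Of the 12 genes of MHC class II presentation, 6 had a lower contrast in the knockout and none a higher one, where 1.91% of all genes tested were called, and 5 were called without the block. Other lists shifted too. Of 36 type I interferon-stimulated genes, 7 had a lower contrast and none a higher one. Of 32 hypoxia and glycolysis genes, 7 had a higher contrast and none a lower one. In these further lists no gene was called without the block. H2-Eb1 had a contrast of 2.15 in wild type and 1.14 in knockout (knockout minus wild type -1.01; limma, adjusted p = 0.00364). Its mean was 177300 normalized reads in knockout macrophages and 63350 in knockout monocytes. Ciita had a contrast of 1.07 in wild type and 0.18 in knockout (limma, adjusted p of the difference 0.00114), with knockout means of 6417 in macrophages and 5502 in monocytes. For both genes the knockout means were above the wild-type means in macrophages and in monocytes, by the larger factor in monocytes. Cd74, H2-Aa, H2-Ab1 and H2-DMb1 had smaller contrasts in the knockout as well, with adjusted p-values of the difference of 0.00845, 0.00405, 0.00717 and 0.00717. The call of H2-DMb1 was lost without the block (adjusted p = 0.0573). H2-DMa (-0.20), H2-Ob (-0.21), H2-DMb2 (0.14), H2-Oa (0.58), Rfx5 (0.18) and Ifi30 (0.03), given as knockout minus wild type, were not called.

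On the monocyte side, Il1r2 had a contrast of -2.70 in wild type and -0.47 in knockout (limma, adjusted p of the difference 7.12e-05). Il1b had contrasts of -1.63 and -0.92 (0.00355), Ptgs2 of -1.43 and -0.52 (0.00717), and Nos2 of -2.54 and -1.38 (0.0189), each with that adjusted p of the difference in brackets. Slc2a1 (-1.22 and -0.78), Ndrg1 (-2.09 and -1.45) and Dgat2 (-3.05 and -1.66) also had smaller differences in the knockout, with adjusted p-values of 0.00364, 0.00355 and 0.00364. Without the replicate block Il1r2 and Dgat2 were still called (limma, adjusted p = 0.0031 and 0.00253), and Il1b, Ptgs2, Nos2, Slc2a1 and Ndrg1 were not (0.0731, 0.301, 0.294, 0.233 and 0.216). Ccnb2 was at 1.76 and 2.50 and Gas6 at 4.27 and 3.12, and the difference between genotypes was not called for either (limma, adjusted p = 0.14 and 0.0777). A missing call does not show an equal contrast: the shift of Gas6 was -1.15, against -1.01 for H2-Eb1, which was called.

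**Figure D5:**
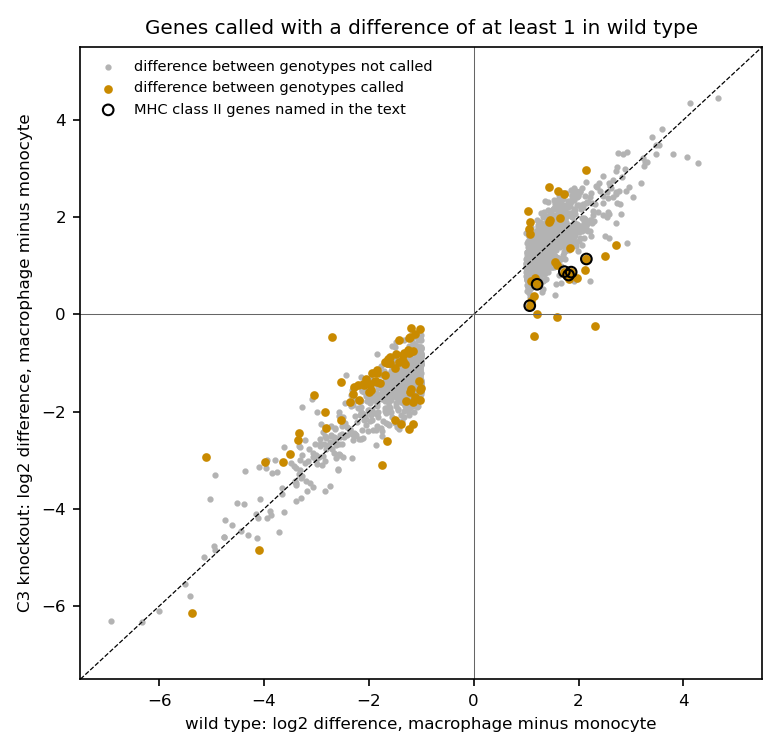
Log2 difference (macrophage minus monocyte) in C3 knockout mice against that in wild-type mice for genes called in wild type with a difference of at least 1, with genes whose contrast differed between genotypes in amber, 6 MHC class II genes circled and the dashed line marking equal values. The class II genes lie below the line, from H2-Eb1 (2.15 and 1.14) to Ciita (1.07 and 0.18).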

How the data were processed

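Sorted macrophages and monocytes from the tumours of 4 C3 wild-type mice were sequenced with the SMART-Seq v4 kit. It does not mark strand, so reads cannot be divided between a gene and one that overlaps it or runs antisense to it. The submitters' processing notes name STAR 2.7.2b, bcl2fastq 2.19.0.316, DESeq2 without a version, and the build GRCm38. What each tool was used for and which annotation served is not given in the sources used here. Expression was deposited by the authors as log2 values of 30819 genes in 16 libraries, and no header names the transform. The base mean used with them is a signal, the mean of reads over size factors, as the authors deposited it per the file headers. Of the matrix columns, 0 belonged to other samples.

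The log2 values followed a regularized logarithm, which was inverted with the authors' base mean to give reads. For 20443 genes whose base mean reached 1, 81.7% of the values came out as whole reads to within 0.05. That share was 97.4% for base means under 10, 97.6% from there to 100, 82.3% to 1000 and 41.0% beyond, where 1 read is a small step. For 99.7% of these genes the reads averaged to within 1% of the base mean, and 54 genes for which they did not have no reads here. Coordinates are from GENCODE M21 (GRCm38).

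The planned design allowed for counts, but the files held log2 values, so limma 3.58.1 (R 4.3.3; trend and robust estimation) was fitted to them with the mouse as a block. A gene was tested if its linear value was 10 or more in at least 4 of the 8 libraries, and p-values were adjusted by Benjamini-Hochberg. The block rests on the titles, since both libraries with a number come from the same mouse. Correlations of deviations from the group means were 0.425, 0.115, 0.0408 and 0.218 within mice 1 to 4 and ran from -0.338 to 0.19 between mice. Replicate libraries were not copies (chi-square per gene 11.7 to 36.2). Members and lists were chosen with earlier results of these data known. Named genes are those of the sort gates, the markers given for the comparison, C3, the 15 largest rises and falls among called genes (no overlap, a mean of at least 50 in the higher group, no predicted genes or pseudogenes) and up to 8 called members per list with the largest difference. Other members are named to account for their list and were chosen after their values were seen. A few genes the rule names are not reported here. Of 14 alternatives, those that lost a call or moved a count by over 1.5 times are given beside it or in the closing section. Motifs were searched on both strands of RefSeq promoters of GRCm38.p6, from 250 bases before to 50 after the start, of which 9493 of 12767 symbols matched. No share of promoters with a motif was tested.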

Additional observations from a re-analysis of the deposited data

Results flagged for a closer look

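In 20 of 444 groups of 4 values among the genes named above, 1 library stood apart from the other 3 by Dixon's 95% limit on the gap to the nearest value as a share of the group's range. Chance flags about 1 in 20 groups. The macrophage library of mouse 1 held Atf3 at 11080 against 15450 to 16190, Ccl24 at 14.2 against 0.923 to 2.54 and Jun at 14500 against 19020 to 19880 normalized reads in the others. It also held Lrg1 at 38.01 against 1.69 to 5.61 and Slpi at 225 against 12.0 to 37.04. The macrophage library of mouse 2 held Chil3 at 30.3 against 5.92 to 8.55, Cxcr2 at 1.12 against 0 and Egln3 at 369 against 173 to 205 normalized reads in the others. It also held Fcgr2b at 16220 against 14020 to 14390. The macrophage library of mouse 3 held Ccl2 at 4921 against 6189 to 6410, Ccl7 at 3387 against 4620 to 4708 and Dgat2 at 325 against 268 to 272 normalized reads in the others. The macrophage library of mouse 4 held Cd59a at 127 against 87.7 to 93.2 and Cxcl14 at 4856 against 3947 to 4043 normalized reads in the others. The monocyte library of mouse 1 held Itgax at 3564 against 4575 to 4781, Slbp at 2496 against 2239 to 2273 and Tlr1 at 1252 against 1273 to 1276 normalized reads in the others. The monocyte library of mouse 2 held Xcr1 at 19.3 against 31.9 to 32.7 normalized reads in the others. The monocyte library of mouse 3 held Tfe3 at 4364 against 4678 to 4733 normalized reads in the others. The monocyte library of mouse 4 held Nlrc5 at 2303 against 2659 to 2689 normalized reads in the others. A flag of a low-count gene, such as Cxcr2 or Ccl24 in macrophages, rests on a few reads.

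The contrast differed between the genotypes for 35 of the genes named above, with limma adjusted p-values of the interaction from 7.12e-05 to 0.0435, where 1.91% of all genes tested were called. The macrophage minus monocyte difference was higher in knockout than in wild type, by the log2 amount in brackets, for Il1r2 (2.23), Lrg1 (2.17), Dgat2 (1.38), Nos2 (1.16), Ptgs2 (0.92), Ackr3 (0.78), Ltb4r1 (0.76), Ahr (0.72), Il1b (0.71) and Ndrg1 (0.64). Smaller shifts in that direction were in Thbs1 (0.63), Bhlhe40 (0.61), Nr4a1 (0.52), Egln3 (0.47), Slc2a1 (0.44), Cd80 (0.44), Ier3 (0.40), Clec4e (0.35), Itga6 (0.34) and Cd14 (0.27). It was lower in knockout for Lyz1 (-1.51), Folr2 (-1.28), Igf1 (-1.23), Ccl7 (-1.19), H2-Eb1 (-1.01), H2-Ab1 (-1.0), H2-Aa (-0.99), Ciita (-0.89), Cd74 (-0.85) and Cxcl9 (-0.80). Smaller shifts downwards were in Cd177 (-0.77), H2-DMb1 (-0.59), Fcgrt (-0.57), Lyz2 (-0.48) and Irf7 (-0.45).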

How the results depend on the processing

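Without the replicate block, 8094 genes were called in place of 8399 (1600 with a difference of at least 1 in place of 1606), and 81 in place of 251 for the difference between genotypes. Leaving out a mouse gave 7343 to 8155 calls, and 1585 to 1641 with a difference of at least 1. On scales that do not draw values together, more genes reached a log2 difference of at least 1, since that threshold is then a smaller change on the deposited scale: 2972 (1404 higher in macrophages, 1568 in monocytes) with log2 of reads plus 1, 2622 (1251 and 1371) with log2 of reads plus 8, and 2964 (1376 and 1588) with voom. With libraries set to a common median, 3743 genes were higher in macrophages and 4651 in monocytes, and with TMM scaling 4379 and 4066, so the near-equal split of the calls depends on the scaling. With no filter on low values 7846 of 30819 genes were called.

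Of 209 called genes named above, 199 kept their call under each of the 14 alternatives and 4 more under each that tested them, since the stricter filter on low values left them out. The 6 that lost a call are given in the text, and none of the 209 changed direction. For the gene lists, 125 of 643 medians under an alternative moved by more than the SD over mice. Counts of called list members that moved by over 1.5 times and are not given above were those higher in macrophages among the colony-stimulating factor receptors (1, from 0 to 2), the B cell markers (1, up to 2) and the T and NK cell markers (1, 0 with the stricter filter), and those higher in monocytes among the dendritic cell (7, 4 with the stricter filter), endothelial (2, 1 with it), mast cell (1, 0 with it) and B cell markers (1, down to 0). Cytosolic ribosomal proteins higher in monocytes (4) also numbered 2 with neither trend nor robust estimation and with no filter, and inflammatory genes higher in macrophages (4) numbered 2 with a common median, with no filter, with neither trend nor robust estimation and without mouse 4. Genes that did not pass changed sign near 0: with a common median Ly6a and Slbp were at -0.01 and Xcr1 at -0.04, Slc2a3 was at 0.02 with TMM scaling and 0.0 with log2 of reads plus 1 or 8, and Xcr1 was at -0.01 with log2 of reads plus 1. With a mouse left out, Ly6a ran from -0.04 to 0.13, Mmp9 from -0.18 to 0.48, P4ha2 from -0.19 to 0.04, Slc2a3 from -0.11 to 0.11 and Xcr1 from -0.19 to 0.14. The median of the endothelial list went from -0.23 to 0.56 with the stricter filter, which tests fewer of its members, and that filter left no member of the mast cell list. Depth limits values below a few reads, as for Cd177, Lcn2 and Cxcr2 in macrophages, and the spread rests on 4 mice.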
